A study of Mus musculus with 24 samples.

Results

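The ventral root of C57BL/6 mice was compared at 3 weeks (3 W) and 1 week (1 W) after birth, on 6 of the 24 arrays of the series. The arrays were chosen by their labels as the efferent nerve fibre (EN) arrays of these ages, with 3 arrays per age and replicates numbered 1 to 3. The remaining arrays hold EN at P0 and 5 W, and the dorsal root with its afferent fibres (AN) at each of those ages. No treatment or genetic change is named for any of these groups. Each Agilent mouse array measured the Cyanine-3 labelled RNA of 1 sample. The study states that the roots were taken from lumbar segments and that animals of both sexes were used. Its methods describe efferent and afferent fibres of the same animals, pooled by group, and data of 3 independent experiments per group. They do not say whether each experiment was a separate pool of animals. The p values therefore measure the spread between the arrays of a group and not between single animals.

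A ventral root carries the axons of motor neurons, whose cell bodies lie in the spinal cord, together with the Schwann cells that wrap these axons, and endoneurial fibroblasts, vessels, macrophages and a connective tissue sheath. Between birth and weaning, Schwann cells that have each taken up 1 large axon stop dividing, silence the genes of the immature state and thicken their myelin, while the matrix around them matures. The RNA of a root is therefore mostly that of Schwann cells and other resident cells, with a small share from axons.

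All values are the deposited log2 intensities, which the authors had quantile normalized. A probe was kept if the scanner marked it well above background on all 3 arrays of either age, which left 34196 of 56605 gene probes. Genes are represented by their kept probe with the highest mean value, which gave 22601 gene names, and levels are compared only within a probe. A gene was called if the Benjamini-Hochberg adjusted p of limma's test over all kept probes was below 0.05 and its fold change was above 2, and only called genes are said to have risen or fallen. Fold changes are 3 W minus 1 W on the log2 scale, and means are given ± SD with n = 3 arrays. Gene lists were chosen with earlier results of these data known, so their shares beside all names are not independent evidence of a change.

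The arrays of the 2 ages were not laid out alike. The 3 arrays at 3 W lay on 1 slide, and the 1 W arrays lay on 3 other slides, so that age and slide cannot be told apart within the 6 arrays. A fit of all 24 arrays with slide as a term (the slide fit) is given below for most named genes whose call it changes, or as a count over their list. The slide of the 3 W arrays held only 1 further array of each root, replicate 3 of 5 W. The slide term rests on that EN array and that AN array, and the slide cannot be told apart from the samples on them. Of 145 called genes named by the rules of the analysis, 99 kept their call in that fit. The 3 W arrays correlated with each other across all kept probes at r = 0.994, and those at 1 W at r between 0.977 and 0.986. Replicate 3 at 1 W stood apart, with a quality weight of 0.252 against 0.946 to 1.88 for the other arrays, and it was highest of the 1 W arrays in the mean level of interferon-stimulated genes (9.30, 9.62 and 11.23 at 1 W and 10.71, 10.51 and 10.37 at 3 W), of erythroid markers (11.78 to 13.84 at 1 W and 13.14 to 13.60 at 3 W) and of pan-neuronal markers (9.98, 10.27 and 11.25 at 1 W and 10.52, 10.31 and 10.65 at 3 W). All 12 Schwann cell markers were kept, none of them was called, and their mean level was 14.98 to 15.09 at 1 W and 15.12 to 15.18 at 3 W. Of 12 motor neuron markers, 8 were kept and none was called, including Chat, the enzyme that makes acetylcholine (8.00, 7.02 and 8.67 at 1 W and 9.05, 8.82 and 8.85 at 3 W; log2 fold change 1.01, SE 0.40, adjusted p = 0.0868), and Slc18a3, the vesicular transporter of acetylcholine (log2 fold change 0.51, SE 0.22, adjusted p = 0.107). The motor neuron markers Mnx1, Isl1, Slc5a7 and Ache did not pass the filter. Schwann cell markers are shared by both roots, and the motor neuron list did not set the ventral root apart, with means of 7.50 at 1 W and 7.49 at 3 W in EN beside 8.80 and 8.08 in AN. Sensory neuron markers averaged 7.59 to 8.73 at 1 W and 7.67 to 8.27 at 3 W in EN and 11.42 ± 0.12 at 1 W in AN.

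Between 1 W and 3 W the ventral root changed widely and about equally in both directions. Of the 34196 kept probes, 2245 were up-regulated and 2221 down-regulated, together 4466 (13.1%). With 1 probe per gene, 1449 of 22601 names (6.41%) rose and 1569 (6.94%) fell, and the median log2 fold change over all of them was -0.01. The counts of gene lists below are to be read beside these shares. More genes rose over 8-fold (89) than fell over 8-fold (37). With the normexp background correction in place of the deposited values, 2216 probes were called. That correction adds an offset of 50 to every signal, which makes log2 differences of dim probes smaller.

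**Figure D1:**
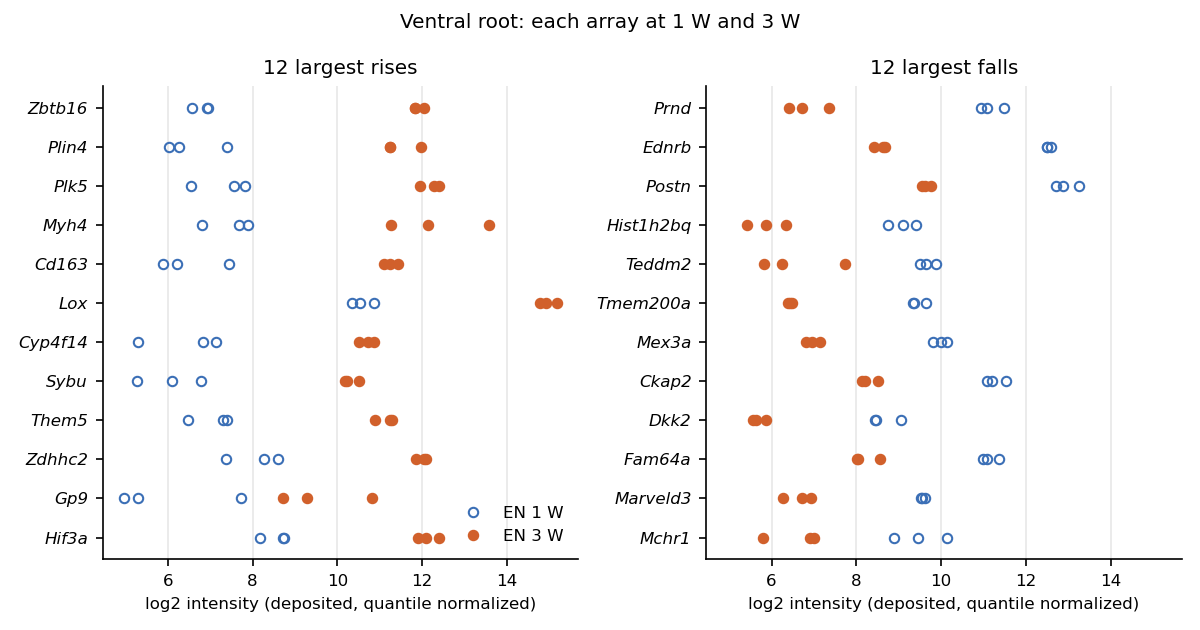
Log2 intensity on each of the 6 EN arrays (x axis) for the 12 genes with the largest rises (left) and the 12 with the largest falls (right) among called genes above background on all 6 arrays; open circles are 1 W arrays and filled circles 3 W arrays. The arrays of the 2 ages lie apart in all 24 because only genes without overlap were taken. The means differ by 5.09 log2 units for Zbtb16 and -4.35 for Prnd.

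Among genes well above background on all 6 arrays, the largest rise was that of Zbtb16, a zinc finger transcription factor that glucocorticoids induce in many tissues (probe at chr9:48462419-48462478, mm9). Its values were 6.58, 6.95 and 6.93 at 1 W and 12.05, 11.84 and 11.83 at 3 W (log2 fold change 5.09, SE 0.14, adjusted p = 0.000113). The 3 arrays at each age lay within a narrow range of each other and about 5 log2 units from the other age. Rises of similar size were seen for the lipid genes Plin4 and Them5, with Plin4, which coats lipid droplets, at 6.02, 6.27 and 7.39 at 1 W and 11.24, 11.25 and 11.97 at 3 W (log2 fold change 4.93, SE 0.40, adjusted p = 0.000652), and Them5, an acyl-CoA thioesterase, at 7.30, 7.40 and 6.46 at 1 W and 11.28, 10.88 and 11.25 at 3 W (log2 fold change 4.08, SE 0.27, adjusted p = 0.000463). Both were at least 3 log2 units higher on every 3 W array than on any 1 W array. Plk5, a polo-like kinase without a role in mitosis, rose from 7.31 ± 0.67 at 1 W to 12.21 ± 0.23 at 3 W (log2 fold change 4.90, SE 0.34, adjusted p = 0.000486), and it was higher still at 5 W (15.33). Cd163, the haemoglobin scavenger receptor of tissue-resident macrophages, had 5.89, 6.21 and 7.44 at 1 W and 11.25, 11.09 and 11.44 at 3 W (log2 fold change 4.74, SE 0.40, adjusted p = 0.000708), whereas the general macrophage genes Cd68 (-0.03, adjusted p = 0.862) and Aif1 (-0.59, adjusted p = 0.0175) were not called. Lox, which cross-links collagen and elastin, rose from 10.58 ± 0.25 at 1 W to 14.96 ± 0.20 at 3 W (log2 fold change 4.38, SE 0.17, adjusted p = 0.00023), and both of its kept probes were called. The cytochrome P450 gene Cyp4f14 rose (4.27, SE 0.47), as did the hypoxia-related transcription factor gene Hif3a (3.58, SE 0.21). Sybu, which links axonal cargo to kinesin, was at 5.28, 6.10 and 6.78 at 1 W and 10.24, 10.19 and 10.50 at 3 W (log2 fold change 4.26, SE 0.37, adjusted p = 0.000761), and Zdhhc2, a palmitoyltransferase, rose (3.92, SE 0.31). Gp9, a platelet glycoprotein, had the widest spread of the 12, with 4.97, 5.30 and 7.72 at 1 W and 8.72, 10.82 and 9.29 at 3 W (log2 fold change 3.61, SE 0.87, adjusted p = 0.0191). Its highest 1 W value, on replicate 3, came within about 1 unit of its lowest 3 W value. The call was lost for Gp9 without replicate 1 or 2 of 1 W or replicate 2 of 3 W (3.0050 to 3.26). The remaining gene of the 12 was Myh4, a fast muscle myosin, which is described with the muscle markers.

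The largest fall among genes well above background on all 6 arrays was that of Prnd, which encodes the prion-like protein doppel. It was at 10.94, 11.09 and 11.48 at 1 W and 7.36, 6.72 and 6.40 at 3 W (log2 fold change -4.35, SE 0.27, adjusted p = 0.000437). Ednrb, the endothelin receptor B that marks Schwann cell precursors and immature Schwann cells (probe at chr14:104214484-104214543, mm9), was at 12.49, 12.51 and 12.60 at 1 W and 8.68, 8.42 and 8.63 at 3 W (log2 fold change -3.96, SE 0.10, adjusted p = 0.000113), and all 3 of its kept probes were called. The arrays of each age differed from each other by under 0.3 log2 units for Ednrb. Postn, the matrix protein periostin, fell from 12.95 ± 0.28 at 1 W to 9.65 ± 0.11 at 3 W (log2 fold change -3.31, SE 0.16, adjusted p = 0.000306), with 4 of 4 kept probes called. Dkk2, a secreted Wnt antagonist, fell from 8.66 ± 0.35 at 1 W to 5.68 ± 0.16 at 3 W (log2 fold change -2.97, SE 0.19, adjusted p = 0.000445) and by 5 W no array had it well above background. Mex3a, an RNA-binding protein of progenitor cells (-3.0022, SE 0.13), the tight junction gene Marveld3 (-2.93, SE 0.17) and Tmem200a, a membrane protein gene (-3.01, SE 0.11), fell by similar amounts. The spindle gene Ckap2 (-2.9958, SE 0.16) and Fam64a, now named Pimreg, a mitotic regulator (-2.94, SE 0.18), belonged to the dividing cell genes described next. The other 3 of the 12 depended more on the slide. In the slide fit, the histone gene named Hist1h2bq in the files (H2bc23 by its accession) changed from -3.21 to -0.20, adjusted p = 0.776, Teddm2 from -3.08 to 1.27, adjusted p = 0.47, and Mchr1, the receptor of melanin-concentrating hormone, from -2.93 to -1.93, adjusted p = 0.0127. Histone H2B genes are nearly identical to each other, so the probe may not separate them.

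Some genes passed from no detection to detection, and for these the fold change is a lower bound set by the lowest signal still well above background. Among called names, 190 rose from no 1 W array above background and 194 fell to no 3 W array above background. A name undetected at 1 age was kept only if all 3 arrays of the other age were above background. The filter therefore set the direction of these changes, and their adjusted p rest in part on values below detection. Retnla, a marker of alternatively activated macrophages, was at 3.21, 3.42 and 5.00 at 1 W and 9.62, 9.36 and 9.75 at 3 W and was at least 25.9-fold higher at 3 W (adjusted p = 0.000684). Dpep1, a membrane dipeptidase, was at least 22.1-fold higher, the phospholyase Etnppl at least 13.4-fold, and Lao1, an L-amino acid oxidase, at least 10.69-fold. The steroid sulfate transporter Slc10a6 was at least 9.14-fold higher and the transcription factor Wt1 at least 7.98-fold higher, and Wt1 was no longer called in the slide fit (4.58, adjusted p = 0.086). In the other direction, Dab1, the adaptor of reelin signalling, was at 8.30, 8.38 and 8.09 at 1 W and 4.35, 4.58 and 4.37 at 3 W and at least 10.4-fold lower at 3 W (adjusted p = 0.000178). The mitotic genes Kif15 and Nek2 were at least 6.04-fold and 5.79-fold lower. Try5 and Try4, trypsinogen genes with nearly identical copies that their probes may not separate, were at least 28.4-fold and 17.1-fold lower. Tmem72 was at least 8.01-fold lower in the 6 arrays, but in the slide fit its change was 0.58, adjusted p = 0.796.

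Genes of cell division fell together. All 44 members of the cell cycle and DNA replication list were kept, 37 fell and none rose, which is 84.1% of the list beside 6.94% of all names, and their median log2 fold change was -1.80. The other 7 members had negative values too, from -0.97 for Hmmr to -0.46 for Cdc6. The mitotic cyclin gene Ccnb1 was at 10.56, 10.46 and 10.99 at 1 W and 7.82, 8.24 and 8.07 at 3 W (log2 fold change -2.63, SE 0.18, adjusted p = 0.000486), with 4 of 4 kept probes called. Its partner kinase gene Cdk1 was at 9.30, 9.61 and 10.06 at 1 W and 7.31, 7.16 and 7.27 at 3 W (log2 fold change -2.41, SE 0.20, adjusted p = 0.000677). In both genes the highest 3 W array lay about 2 log2 units below the lowest 1 W array. The other large falls were in Aurkb, a kinase of the chromosomal passenger complex (-2.59, SE 0.11), the spindle checkpoint kinase gene Bub1 (-2.44, SE 0.20), the kinetochore gene Cenpf (-2.43, SE 0.17) and Top2a, the topoisomerase of dividing cells (-2.35, SE 0.18). Mki67, the proliferation marker, fell from 13.04 ± 0.40 at 1 W to 11.09 ± 0.20 at 3 W (log2 fold change -1.94, SE 0.22, adjusted p = 0.00174), and so did Foxm1, a transcription factor that drives mitotic genes (-2.13, SE 0.14). Among the subunits of the replicative helicase, Mcm5 (-1.54), Mcm2 (-1.44), Mcm3 (-1.28) and Mcm6 (-1.22) fell, while Mcm4 (-0.58), Mcm7 (-0.79) and the sliding clamp gene Pcna (-0.59) stayed within a fold change of 2. The cyclin D1 gene Ccnd1, high in immature Schwann cells, fell (-1.24, SE 0.09). In these bulk samples, fewer cells of a type and less RNA per cell cannot be told apart. With slide as a term the list had 37 falls and a median of -1.95, and without replicate 3 of 1 W 35 falls and -1.61.

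Many mitotic genes carry a cell cycle homology region near their start, a short element bound by the repressor complexes of resting cells. The letters TTTGAA or TTTAAA were searched on both strands of the 250 bases before each start in RefSeq's annotation of GRCm38.p6. At least 1 match lay in 14 of the 34 cell cycle genes that had a promoter there (41.2%), beside 7599 of 27025 genes in all (28.1%). All 14 were called, but so were 30 of the 34 with or without a match. The promoters of the 2 members with a match and the largest fall are shown because they belong to genes at the head of the list, 5′ to 3′ and with the match in capitals.
Ccnb1, chr13:100786487-100786736, minus strand: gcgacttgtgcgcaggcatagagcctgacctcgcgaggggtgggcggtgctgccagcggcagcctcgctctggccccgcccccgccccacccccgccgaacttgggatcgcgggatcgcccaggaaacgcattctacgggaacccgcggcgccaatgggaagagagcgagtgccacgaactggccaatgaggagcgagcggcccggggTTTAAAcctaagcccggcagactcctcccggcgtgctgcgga
Cenpf, chr1:189688087-189688336, minus strand: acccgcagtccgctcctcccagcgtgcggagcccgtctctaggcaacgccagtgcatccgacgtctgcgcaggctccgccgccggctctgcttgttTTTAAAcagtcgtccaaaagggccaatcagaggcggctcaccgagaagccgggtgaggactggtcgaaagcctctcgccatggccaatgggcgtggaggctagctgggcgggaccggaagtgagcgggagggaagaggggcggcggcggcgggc
The match began 42 bases before the start of Ccnb1 and 154 bases before that of Cenpf. A match of 6 letters is a description of the sequence and not a site of binding.

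Genes of immature Schwann cells fell as well, while few of those of myelin were called. Of 15 kept members of the immature Schwann cell list, 8 fell (53.3% beside 6.94% of all names) and 1 rose (6.67% beside 6.41%), with a median log2 fold change of -1.07. Beside Ednrb, the falls included Sox2, which holds Schwann cells in the immature state, at 10.22, 10.09 and 10.19 at 1 W and 8.05, 8.21 and 8.03 at 3 W (log2 fold change -2.07, SE 0.09, adjusted p = 0.000306), and Pax3 (log2 fold change -2.47, SE 0.22, adjusted p = 0.000852). The 1 W arrays of Sox2 differed by about 0.1 from each other and by about 2 log2 units from those at 3 W. The remaining falls were in Id2, an inhibitor of differentiation (-2.25, SE 0.14), the adhesion molecule genes Ncam1 (-1.37, SE 0.12) and L1cam (-1.07, SE 0.11), the fatty acid binding gene Fabp7 (-1.73, SE 0.35) and the growth-associated gene Gap43 (-1.86, SE 0.38). Notch1, a receptor that supports immature Schwann cells, went the other way at 9.28, 8.40 and 10.20 at 1 W and 10.77, 11.19 and 10.44 at 3 W (log2 fold change 1.51, SE 0.46, adjusted p = 0.0412), with a 1 W spread wider than for most members. That call was lost for Notch1 without replicate 1 or 2 of 1 W or replicate 1, 2 or 3 of 3 W (1.06 to 1.69) and in the slide fit (0.68, adjusted p = 0.269). Gap43 was -1.18, adjusted p = 0.413 in the slide fit. Jun (0.14, adjusted p = 0.576), Ngfr (-0.69, adjusted p = 0.0138) and Gfap (7.07, 10.18 and 8.66 at 1 W and 10.004, 10.28 and 9.14 at 3 W; log2 fold change 1.17, SE 0.78, adjusted p = 0.266) were not called, and the values of Gfap overlapped between the ages.

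Among 13 kept transcription factors of Schwann cell myelination, 2 fell (15.4% beside 6.94% of all names) and none rose. Pou3f1, also known as Oct6, which is transient in promyelinating cells, was at 15.02, 14.97 and 14.13 at 1 W and 12.67, 12.84 and 13.00 at 3 W (log2 fold change -1.87, SE 0.26, adjusted p = 0.00309), and the related Pou3f2 fell (-1.51, SE 0.11). Both are factors of the promyelinating step, and their 1 W and 3 W arrays lay apart. Egr2, the main driver of myelin genes, was at 15.58, 15.47 and 15.62 at 1 W and 16.00, 16.14 and 16.24 at 3 W (log2 fold change 0.57, SE 0.10, adjusted p = 0.00716), which did not reach a fold change of 2, and Sox10 had a difference of 0.02, adjusted p = 0.928. Of 20 myelin protein genes, 1 rose (5% beside 6.41% of all names) and none fell, with a median of 0.14. Mbp, which compacts the myelin membrane, was at 17.02, 17.11 and 16.07 at 1 W and 16.65, 16.61 and 16.77 at 3 W (log2 fold change -0.06, SE 0.28, adjusted p = 0.888), and the arrays of the 2 ages overlapped. The gene that rose was Drp2, which forms the appositions of the outer Schwann cell membrane with periaxin, from 14.23 ± 0.32 at 1 W to 15.55 ± 0.10 at 3 W (log2 fold change 1.32, SE 0.17, adjusted p = 0.00264) and with 4 of 4 kept probes called, while the periaxin gene Prx itself had -0.48, adjusted p = 0.0123. The Schwann cell gene S100b had 0.85, adjusted p = 0.00223, below a fold change of 2.

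None of the 24 kept genes of sterol synthesis and uptake was called, and their median was -0.06. The lowest value was -0.79 for Nsdhl, an enzyme of the late pathway, and Hmgcs1, an early enzyme, had 0.26, adjusted p = 0.0614. Of 23 genes of myelin fatty acid and sphingolipid synthesis, only Agpat1, which makes phosphatidic acid, was called (log2 fold change 1.49, SE 0.15, adjusted p = 0.00131), and in the slide fit none was. That rise is 4.35% of the list, beside 6.41% of all names. A sterol regulatory element, searched as TCACNCCAC on both strands of the same 250 bases, lay before 1 of 16 sterol genes with a promoter and before 1.22% of all genes. The promoter that held it is that of Hmgcs1, shown as the counterpart from a list without calls.
Hmgcs1, chr13:119690101-119690350, plus strand: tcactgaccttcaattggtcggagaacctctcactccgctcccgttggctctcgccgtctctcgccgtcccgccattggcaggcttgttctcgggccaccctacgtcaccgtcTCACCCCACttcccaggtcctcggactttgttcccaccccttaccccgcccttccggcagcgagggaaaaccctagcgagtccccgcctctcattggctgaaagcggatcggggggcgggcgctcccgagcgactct

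**Figure D2:**
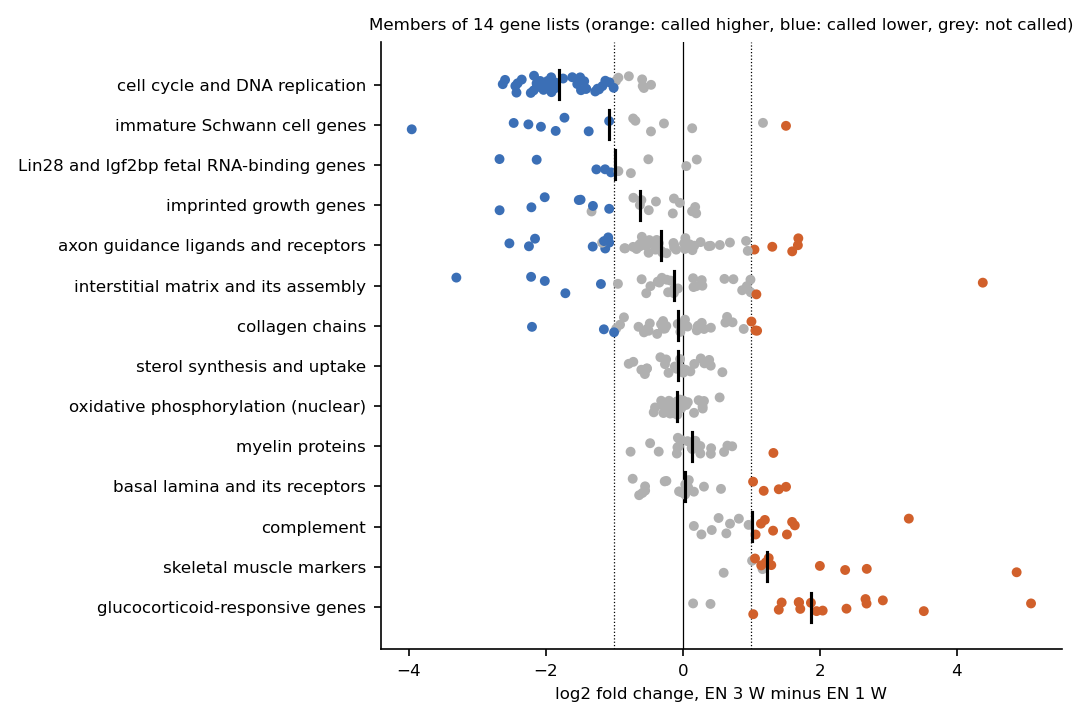
Log2 fold change, 3 W minus 1 W, of every kept member of 14 gene lists (x axis), 1 point per gene; black bars are list medians and dotted lines mark a fold change of 2. The cell cycle list lies wholly below 0 with a median of -1.80, the glucocorticoid-responsive list wholly above 0 with a median of 1.87, and sterol and oxidative phosphorylation genes lie between the dotted lines.

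Some genes of fetal growth fell. Of 19 kept imprinted growth genes, 7 fell (36.8% beside 6.94% of all names) and none rose (median -0.63). The noncoding RNA gene H19 was at 15.45, 15.68 and 16.28 at 1 W and 12.91, 13.58 and 12.89 at 3 W (log2 fold change -2.67, SE 0.28, adjusted p = 0.00138), and its neighbour Igf2, a fetal growth factor, at 13.65, 13.79 and 14.46 at 1 W and 11.92, 12.003 and 11.94 at 3 W (log2 fold change -2.02, SE 0.22, adjusted p = 0.00148), with 1 of its 2 kept probes called. Both genes were highest at 1 W on replicate 3, and the ages did not overlap. Cdkn1c, an imprinted inhibitor of the cell cycle, fell (-2.21, SE 0.11), as did Mest (-1.49, SE 0.15). Of 10 genes of the Lin28 and Igf2bp fetal RNA-binding group, 5 fell (50% beside 6.94%) and none rose (median -0.99). They were Lin28b, which blocks let-7 microRNAs and was at least 1.6-fold lower (not above background at 3 W), Igf2bp3 (-2.13, SE 0.18), Hmga2 (-1.26, SE 0.24), Hmga1 (-1.13, SE 0.10) and Igf2bp2 (-1.05, SE 0.11). In the slide fit 2 of the 5 calls held, and the call was lost for Igf2bp2 without replicate 1 of 1 W (-0.97). The other 3 imprinted falls were Usp29, Zim1 and Slc38a4, and that of Usp29 was not called in the slide fit. Of 18 genes of DNA methylation and Polycomb repression, 2 rose (11.11% beside 6.41% of all names) and 1 fell (5.56% beside 6.94%), with a median of -0.28. Uhrf1, which recruits the maintenance methyltransferase in S phase, fell (log2 fold change -2.19, SE 0.11, adjusted p = 0.000336). The Polycomb subunit genes Cbx7 (1.77, SE 0.15) and Ezh1 (1.08, SE 0.10) rose.

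Matrix genes moved in both directions. Of 31 interstitial matrix genes, 2 rose (6.45%, near the 6.41% of all names) and 5 fell (16.1% beside 6.94%), with a median of -0.13. Beside the rise of Lox, P4ha1, a collagen prolyl hydroxylase, rose (1.08, SE 0.12). Beside Postn, the falls were Tnc, the tenascin of growing tissue (-2.21, SE 0.27), Fbn2, the fetal fibrillin (-2.01, SE 0.11), Thbs2 (-1.71, SE 0.11) and Mfap2 (-1.19, SE 0.13). Among 35 kept collagen chains, 3 rose and 3 fell (8.57% each), which is near the shares of all names. Col2a1, the main collagen of cartilage, had the widest difference, from 13.25 ± 0.62 at 1 W to 11.05 ± 0.13 at 3 W (log2 fold change -2.20, SE 0.31, adjusted p = 0.00319), and in the slide fit it was -0.69, adjusted p = 0.0407. The other calls were near the threshold of 2, with Col23a1 (1.09), Col4a4 (1.06) and Col15a1 (1.0038) higher and Col16a1 (-1.15) and Col28a1 (-1.0027) lower. Calls were lost for Col23a1 without replicate 3 of 1 W (0.87), Col4a4 without replicate 3 of 3 W (0.98) and Col15a1 without replicate 3 of 1 W or replicate 1 or 2 of 3 W (0.79 to 0.90). Of 20 basal lamina genes, 4 rose (20% beside 6.41%) and none fell, namely the laminin chain genes Lama5 (1.40, SE 0.15) and Lamc3 (1.03, SE 0.13) and the integrin genes Itga3 (1.51, SE 0.20) and Itgb4 (1.18, SE 0.17). Itgb4 encodes a subunit of the laminin receptor of myelinating Schwann cells and perineurial cells. Of 10 endoneurial fibroblast markers, 4 rose (40% beside 6.41%) and none fell (median 0.89). Their mean level was 12.23, 12.49 and 12.66 at 1 W and 13.39, 13.22 and 13.17 at 3 W. Mfap5, a microfibril protein, was the steadiest of them (log2 fold change 2.07, SE 0.13, adjusted p = 0.000439), followed by Ly6a (log2 fold change 2.15, SE 0.36, adjusted p = 0.00563), Clec3b (1.65, SE 0.31) and Pi16 (1.34, SE 0.42). Of 11 meningeal and perineurial markers, 1 rose (Itgb4) and 1 fell (Slc22a6, -1.27, SE 0.26), which is 9.09% each beside 6.41% and 6.94%. With slide as a term Clec3b, Pi16, Lamc3 and Slc22a6 were not called, and calls were lost for Lamc3 without replicate 3 of 1 W or replicate 1 of 3 W (0.95) and Pi16 without replicate 1 or 2 of 1 W or replicate 1, 2 or 3 of 3 W (0.89 to 1.56).

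Axon guidance genes moved in both directions. Of 49 kept ligands and receptors, 5 rose (10.2% beside 6.41% of all names) and 8 fell (16.3% beside 6.94%), with a median of -0.31. Slit2 and Slit3, secreted repellents for Robo receptors, rose, with Slit2 at 11.74, 11.94 and 11.38 at 1 W and 13.08, 12.86 and 13.05 at 3 W (log2 fold change 1.31, SE 0.16, adjusted p = 0.00226) and Slit3 at 6.42, 6.66 and 6.33 at 1 W and 8.18, 8.13 and 8.16 at 3 W (log2 fold change 1.69, SE 0.11, adjusted p = 0.000445). Their receptor gene Robo1 fell by a smaller amount (log2 fold change -1.07, SE 0.29, adjusted p = 0.0276), and that call was lost for Robo1 without replicate 2 or 3 of 1 W or replicate 1 or 3 of 3 W (-1.11 to -0.85) and in the slide fit. Unc5b, a netrin receptor, was at 11.47, 11.31 and 11.45 at 1 W and 9.10, 8.74 and 8.79 at 3 W (log2 fold change -2.53, SE 0.13, adjusted p = 0.000326). The ephrin receptor genes diverged, since Epha5 (-2.25, SE 0.10) and Ephb2 (-2.16, SE 0.14) fell and Ephb1 (1.68, SE 0.14) rose. Sema3g (1.60, SE 0.09) and the semaphorin receptor gene Plxnb1 (1.05, SE 0.14) rose, and Sema6d (-1.31, SE 0.14), Sema6a (-1.15, SE 0.20), Efna5 (-1.13, SE 0.13) and Efna1 (-1.09, SE 0.14) fell. Slit3 was 0.89, adjusted p = 0.0194 in the slide fit.

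Of the 17 kept genes that the study names, 2 rose (11.8% beside 6.41% of all names) and 4 fell (23.5% beside 6.94%). The rises were Slit2 and Slit3 and the falls Ncam1, Nlgn1, Robo1 and Gabrb2. The study chose its named genes on these samples, so the counts are not independent evidence of a direction. Among 6 neurexins and neuroligins, Nlgn1 fell (log2 fold change -1.17, SE 0.18, adjusted p = 0.0047), and the other 5 were not called. Of 18 GABAA receptor subunit genes, 9 were kept, and Gabrb2 fell (log2 fold change -1.07, SE 0.17, adjusted p = 0.00516). These single falls are 16.7% and 11.1% of the kept members of their lists, beside 6.94% of all names. Gabra2 had a larger difference with a wider spread (log2 fold change 1.76, SE 0.60, adjusted p = 0.0564). Of 21 axon growth and neuronal cytoskeleton genes, 4 fell (19.05% beside 6.94% of all names) and none rose. The falls were Crmp1 (-2.01, SE 0.47), Gap43, Tubb2b (-1.30, SE 0.13) and Marcksl1 (-1.16, SE 0.11). Among 21 genes of the node of Ranvier and paranode, the sodium channel beta subunit genes Scn4b (log2 fold change 1.74, SE 0.27, adjusted p = 0.00477) and Scn2b (log2 fold change 1.15, SE 0.14, adjusted p = 0.00217) rose, and Epb4.1l3 (now Epb41l3), a paranodal scaffold, fell (log2 fold change -1.22, SE 0.09, adjusted p = 0.000539). The rises are 9.52% of the list beside 6.41% of all names, and the fall is 4.76% beside 6.94%. Calls were lost for Gabrb2 without replicate 3 of 1 W or replicate 2 of 3 W (-0.95 to -0.94) and Crmp1 without replicate 1 or 2 of 3 W (-2.0050 to -1.88), and neither gene was called in the slide fit. In that fit the changes of the 3 node genes were 1.86, adjusted p = 0.302 for Scn4b, 0.92, adjusted p = 0.209 for Scn2b and -1.24, adjusted p = 0.0929 for Epb4.1l3.

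Genes that glucocorticoids induce rose together. These hormones act through the receptor encoded by Nr3c1, and corticosterone, the main one in rodents, circulates at low levels in the early postnatal period. Of 17 kept glucocorticoid-responsive genes, 15 rose and none fell, which is 88.2% beside 6.41% of all names, and the median log2 fold change was 1.87. The list was chosen with earlier results of these data known and holds Zbtb16, so its share is not independent evidence. The 2 members not called were the receptor genes themselves, Nr3c1 (0.15, adjusted p = 0.21) and Nr3c2 (0.41, adjusted p = 0.0113). Beside Zbtb16, Tsc22d3, also known as Gilz, an anti-inflammatory target gene, was at 12.40, 12.33 and 12.35 at 1 W and 15.82, 15.71 and 16.11 at 3 W (log2 fold change 3.52, SE 0.12, adjusted p = 0.00018). Fkbp5, a chaperone that restrains the receptor, was at 9.71, 9.68 and 10.28 at 1 W and 12.61, 12.37 and 12.75 at 3 W (log2 fold change 2.68, SE 0.20, adjusted p = 0.000533). For both genes each 3 W array was more than 2 log2 units above each 1 W array. Rises followed in Pdk4, which limits glucose oxidation (2.92, SE 0.14), Ddit4, an inhibitor of mTOR signalling (2.67, SE 0.13), the Krueppel-like factor genes Klf9 (2.39, SE 0.12) and Klf15 (1.95, SE 0.13), and Hsd11b1, which regenerates active glucocorticoid (1.87, SE 0.16). The metallothionein gene Mt2 was at 16.00, 16.14 and 15.54 at 1 W and 17.93, 17.91 and 17.98 at 3 W (log2 fold change 2.04, SE 0.17, adjusted p = 0.000665). Sgk1 (1.72, SE 0.19), Errfi1 (1.70, SE 0.12), Angptl4 (1.69, SE 0.11), Per1 (1.45, SE 0.19), Cdkn1a (1.40, SE 0.18) and Mt1 (1.03, SE 0.13) rose as well. No hormone was measured in these animals.

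The median was smaller in the slide fit. There, 12 of the 17 genes were called and the median was 1.14, with Ddit4 at 0.91, adjusted p = 0.0774, Angptl4 at 0.17, adjusted p = 0.777 and Per1 at 0.69, adjusted p = 0.0777. Among the 5 W arrays, the one that shared the slide of the 3 W arrays was higher than the other 2 by a median of 0.50 log2 units over the list. Other calls held, with Zbtb16 at 3.76, adjusted p = 5.89e-07, Tsc22d3 at 3.13, adjusted p = 1.93e-06 and Fkbp5 at 1.87, adjusted p = 0.000302. Hif3a went from 3.58 to 1.79, adjusted p = 0.0227. The AN arrays of the same ages, which do not share a tube with EN but lay on the same slides, had differences of 5.14 for Zbtb16 and 3.69 for Tsc22d3.

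The glucocorticoid receptor binds a pair of short elements, TGTTCT and its reverse complement AGAACA, with 3 bases between them. In the same 250 bases and on both strands, TGTTCT alone lay before 2 of 14 listed genes with a promoter (14.3%) and before 18.2% of all genes. The exact pair lay before 3 of 27025 genes, and 1 of them was the listed gene Sgk1, a kinase of ion transport, at 1 of its 6 starts. This search was added after the values were seen, and the stretch is shown because it holds that pair, in capitals.
Sgk1, chr10:21993640-21993889, plus strand: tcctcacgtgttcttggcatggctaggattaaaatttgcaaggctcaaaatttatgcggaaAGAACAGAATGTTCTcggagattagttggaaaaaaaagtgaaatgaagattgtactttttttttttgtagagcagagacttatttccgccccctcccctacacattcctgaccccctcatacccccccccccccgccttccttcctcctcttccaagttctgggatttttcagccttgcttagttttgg
No match in the other promoters says only that these letters are not in this window.

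Another 2 groups of genes react to the hour of the day and to the handling of tissue, which the labels do not give. Of 17 circadian clock genes, 3 rose (17.65% beside 6.41% of all names) and 2 fell (11.76% beside 6.94%). Per1 and Per2 (1.62, SE 0.17), which glucocorticoids also induce, were among the rises, and Nr1d1 (-1.33, SE 0.20) and Ciart (-1.05, SE 0.28) were the falls. In the slide fit none of these 4 was called, with Per1 as above, Per2 at 1.04, adjusted p = 0.0782, Nr1d1 at -1.16, adjusted p = 0.474 and Ciart at -1.69, adjusted p = 0.2. The call was lost for Ciart without replicate 1 or 2 of 1 W or replicate 2 or 3 of 3 W (-1.06 to -0.86). Of 16 immediate early and dissection-sensitive genes, 7 rose (43.75% beside 6.41% of all names) and 1 fell (6.25%, near the 6.94% of all names). The heat shock genes Hspa1b (2.56, SE 0.19) and Hspa1a (1.74, SE 0.16), whose probes may not separate the 2 nearly identical copies, rose, as did Arc (2.55, SE 0.31), Zfp36 (1.42, SE 0.24), Btg2 (1.24, SE 0.13), Dusp1 (1.19, SE 0.20) and Nr4a1 (1.17, SE 0.17). Egr3 fell (log2 fold change -2.59, SE 0.25, adjusted p = 0.00105), and Fos, the best-known early gene, was at 11.37, 10.96 and 10.19 at 1 W and 9.44, 10.78 and 10.88 at 3 W (log2 fold change -0.47, SE 0.47, adjusted p = 0.454) with overlapping arrays. In the slide fit 1 of the group was called higher and 2 lower, and its median went from 0.49 to 0.07. The part of handling in these values was not tested.

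**Figure D3:**
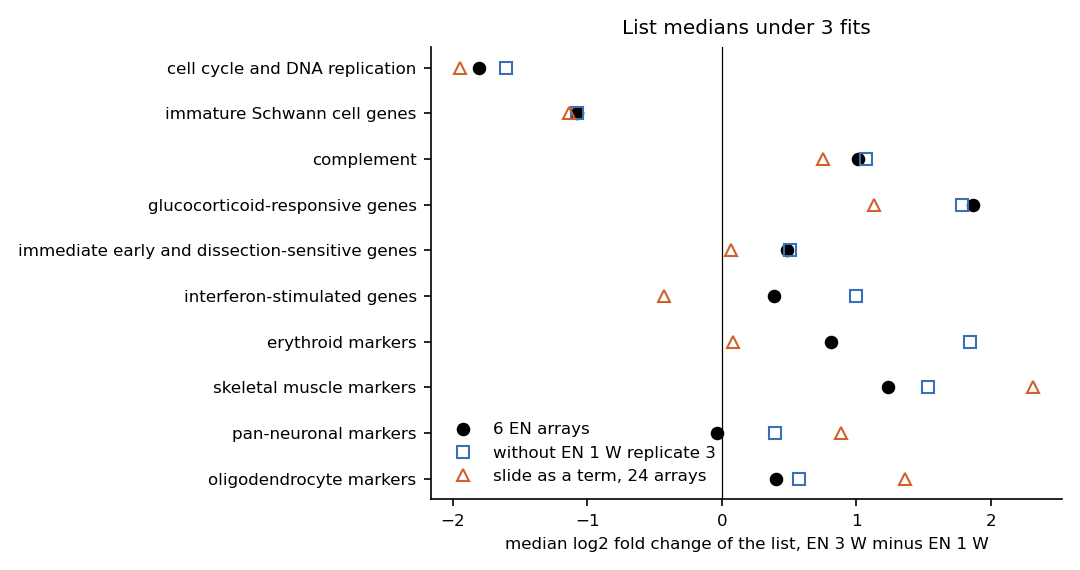
Median log2 fold change of 10 gene lists, 3 W minus 1 W (x axis), in the 6 EN arrays (black), without replicate 3 of 1 W (blue squares) and in the 24-array slide fit (orange triangles). The cell cycle median stays between -1.95 and -1.61, while that of interferon-stimulated genes runs from -0.43 to 1.0010.

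Immune genes rose in part. All 16 complement genes had positive values, 8 rose (50% beside 6.41% of all names) and none fell (median 1.01). C4b, of the classical pathway, was at 10.56, 10.80 and 10.78 at 1 W and 12.25, 12.57 and 12.22 at 3 W (log2 fold change 1.64, SE 0.13, adjusted p = 0.000654), and the C1r protease gene C1ra rose (1.60, SE 0.10). The inhibitor genes Serping1 (1.32, SE 0.15) and Cd55 (1.20, SE 0.10) rose with them, as did C3 (1.14, SE 0.17), C5ar1 (1.52, SE 0.21), Cfb (1.06, SE 0.25) and Cfd, which is also an adipocyte gene (log2 fold change 3.30, SE 0.50, adjusted p = 0.00422). The C1q genes of macrophages stayed below a fold change of 2, with C1qa at 0.52, C1qb at 0.42 and C1qc at 0.64. With slide as a term 4 of the 16 were called, and Cfd was 3.46, adjusted p = 0.239. Of 19 genes of MHC presentation, 4 rose (21.05% beside 6.41% of all names) and none fell. All 4 belong to the class II pathway, namely Cd74 (1.47, SE 0.21), H2-DMb1 (1.43, SE 0.21), H2-Aa (1.34, SE 0.16) and H2-Eb1 (1.29, SE 0.10). H2-Aa and H2-Eb1 were not called in the slide fit. Of 15 macrophage and microglia markers, only Cd163 was called (6.67%, near the 6.41% of all names). Of 8 kept lymphocyte markers, 2 rose (25% beside 6.41%), among them the B cell gene Ms4a1 (at least 5.4-fold higher, not above background on any 1 W array). None of 24 interferon-stimulated genes was called, although the median was 0.39. Ifit1 was at 5.03, 5.90 and 9.02 at 1 W and 8.53, 8.15 and 7.72 at 3 W (log2 fold change 1.48, SE 0.997, adjusted p = 0.273), where replicate 3 of 1 W lay above all 3 W arrays and the other 1 W arrays below them. Without that array 12 of the 24 rose, and in the slide fit the median was -0.43. None of 5 kept mast cell markers was called.

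Signalling genes of development changed in both directions. Of 28 kept desert hedgehog, Notch and Wnt genes, 3 rose (10.71% beside 6.41% of all names) and 5 fell (17.9% beside 6.94%). The secreted Wnt antagonists moved apart, since Dkk2, Sfrp2 (at least 2.24-fold lower) and Sfrp1 (-1.01, SE 0.22) fell while Sfrp5, at 13.62, 13.64 and 13.37 at 1 W and 15.63, 15.60 and 15.89 at 3 W (log2 fold change 2.16, SE 0.13, adjusted p = 0.000391), and Frzb (1.15, SE 0.17) rose. The hedgehog antagonist gene Hhip fell (-1.0026, SE 0.14). In the insulin-like growth factor axis, Igf2 and the binding protein gene Igfbp2 (-1.73, SE 0.37) fell, and Igfbp6 (1.46, SE 0.17), which binds Igf2, and the receptor gene Igf1r (1.03, SE 0.13) rose, out of 13 kept genes. Rises and falls were 15.4% each, beside 6.41% and 6.94% of all names. Only 1 of the 4 kept probes of Igf1r was called and it was not called in the slide fit, and the call was lost for Igf1r without replicate 1 of 1 W or replicate 1 or 2 of 3 W (0.97 to 0.99). Of 12 genes of neuregulin, ErbB and Lgi4 signalling, Hbegf rose (log2 fold change 1.52, SE 0.12, adjusted p = 0.000618). That rise is 8.33% of the list beside 6.41% of all names, and 2 falls, of Nrg1 and Erbb4, are 16.7% beside 6.94%. The probes of Nrg1, the axonal signal for myelination, disagreed, with the brightest at log2 fold change -1.30, SE 0.19, adjusted p = 0.00368 and the other 2 called higher, and the change of the brightest was 0.34, adjusted p = 0.157 in the slide fit. Erbb4 changed from -1.06 to 0.38, adjusted p = 0.0774 in the same way, and the call was lost for Erbb4 without replicate 1 of 1 W (-0.89).

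Energy metabolism showed little change. None of the 37 nuclear genes of oxidative phosphorylation was called, with values from -0.42 for Sdhd to 0.54 for Sdhc and a median of -0.08. Among 22 glycolysis and lactate transport genes, the glucose transporter gene Slc2a1 (log2 fold change 1.56, SE 0.18, adjusted p = 0.00185), which marks the perineurium and vessels too, and Aldoc (log2 fold change 1.02, SE 0.15, adjusted p = 0.00342) rose. They are 9.09% of the list, beside 6.41% of all names. Of 12 endothelial markers Slc2a1 alone was called (8.33%), and of 10 pericyte and smooth muscle markers Myh11 (1.24, SE 0.26) and Tagln (1.13, SE 0.25) rose (20%). Myh11 was not called in the slide fit. Calls were lost for Aldoc without replicate 1 of 1 W or replicate 3 of 3 W (0.88 to 0.98), Myh11 without replicate 1 of 3 W (0.94) and Tagln without replicate 3 of 1 W or replicate 1 of 3 W (0.84 to 1.07).

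Of the markers of neighbouring tissues, most of those of skeletal muscle rose. All 12 skeletal muscle markers were kept, 9 rose (75% beside 6.41% of all names) and none fell (median 1.24), and their mean level was 9.79, 9.76 and 10.37 at 1 W and 12.07, 11.81 and 11.21 at 3 W. Myh4 was at 6.82, 7.89 and 7.68 at 1 W and 13.59, 12.15 and 11.27 at 3 W (log2 fold change 4.88, SE 0.61, adjusted p = 0.0023), with a wide spread at 3 W and 1 of 2 kept probes called. Pvalb, a calcium buffer of fast muscle and of some neurons (2.69, SE 0.26), the creatine kinase gene Ckm (2.37, SE 0.30) and Actn3 (2.0031, SE 0.21) rose. Among the EN ages the list was highest at P0, at 12.47 ± 0.74, above its 3 W level. In AN the list was at 9.495 ± 0.71 at 1 W and 12.58 ± 1.64 at 3 W. In the slide fit of EN, 3 of the 12 were called with a median of 2.32. Of 12 adipocyte markers, 9 had positive values (median 0.69), and Plin4, Cfd and Lpl (1.39, SE 0.18) rose (25% beside 6.41%). The defining adipocyte genes Adipoq (0.70, adjusted p = 0.212) and Plin1 (-0.56, adjusted p = 0.47) were not called. Of 10 oligodendrocyte markers, 8 had positive values (median 0.405). Their mean level was 8.95, 9.88 and 9.54 at 1 W and 10.2, 10.29 and 10.12 at 3 W. Hapln2 alone was called (10% beside 6.41%) and rose (at least 2.44-fold), while Mog, which central but not peripheral myelin holds, had -0.07, adjusted p = 0.663. Of 10 astrocyte markers, 8 had positive values (median 0.09), and Aldh1l1 (1.71, SE 0.13) and Slc1a2 (1.41, SE 0.33) rose (20% beside 6.41%). Aqp4 had the lowest value of the list (-0.30, adjusted p = 0.776). Pan-neuronal markers (12) were not called, and the largest difference among them was that of the synaptic vesicle gene Syt1 (-0.93, adjusted p = 0.316). Of 10 sensory neuron markers only the dim Trpv1 was called (log2 fold change 1.11, SE 0.30, adjusted p = 0.029), which is 10% beside 6.41%. In the slide fit Trpv1 was 1.42, adjusted p = 0.29. None of 9 kept erythroid markers was called, while 5 rose without replicate 3 of 1 W. Of 5 kept melanocyte markers, Pmel (log2 fold change -1.94, SE 0.23, adjusted p = 0.00197) and Dct (log2 fold change -1.69, SE 0.40, adjusted p = 0.0178) fell (40% beside 6.94% of all names). In the slide fit Dct was 2.30, adjusted p = 0.0103. Calls among these markers were lost for Mylpf without replicate 1 or 2 of 1 W or replicate 1 or 2 of 3 W (1.07 to 1.28), Slc1a2 without replicate 1 or 2 of 3 W (1.34 to 1.37), Trpv1 without replicate 1 of 1 W or replicate 1, 2 or 3 of 3 W (0.77 to 1.21) and Dct without replicate 2 or 3 of 3 W (-1.64 to -1.56). In the nonmyelinating Schwann cell list of 9, Scn7a (1.79, SE 0.22) and Csmd1 (at least 2.34-fold) rose and Ncam1 and L1cam fell. Rises and falls were 22.2% each, beside 6.41% and 6.94% of all names. Scn7a and Lpl were not called in the slide fit. The part of neighbouring tissue in the changes of other genes was not tested.

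The stages on either side put the interval in its course, with means over the kept members of a list. Cell cycle genes were at 11.20 ± 0.08 at P0, 10.58 ± 0.25 at 1 W, then 8.93 ± 0.07 at 3 W, and 8.37 ± 0.13 at the last age. Their drop from 1 W to 3 W was wider than that of the steps before and after. Immature Schwann cell genes were at 11.95 ± 0.10 at P0, 10.95 ± 0.29 at 1 W, then 9.88 ± 0.07 at 3 W, and 9.57 ± 0.14 at the last age. The myelin protein genes were at 14.57 ± 0.13 at P0, 15.70 ± 0.09 at 1 W, then 15.86 ± 0.05 at 3 W, and 15.83 ± 0.05 at the last age, and their wider step came before 1 W. Glucocorticoid-responsive genes were at 12.07 ± 0.08 at P0, 11.83 ± 0.06 at 1 W, then 13.87 ± 0.08 at 3 W, and 13.69 ± 0.32 at the last age. Single members differed more between P0 and 1 W, since Zbtb16 averaged 9.81 at P0 and 6.82 at 1 W, and Hif3a, which is not in the list, 11.09 and 8.55. The 3 W arrays differ by slide from the stages before them, as stated above.

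**Figure D4:**
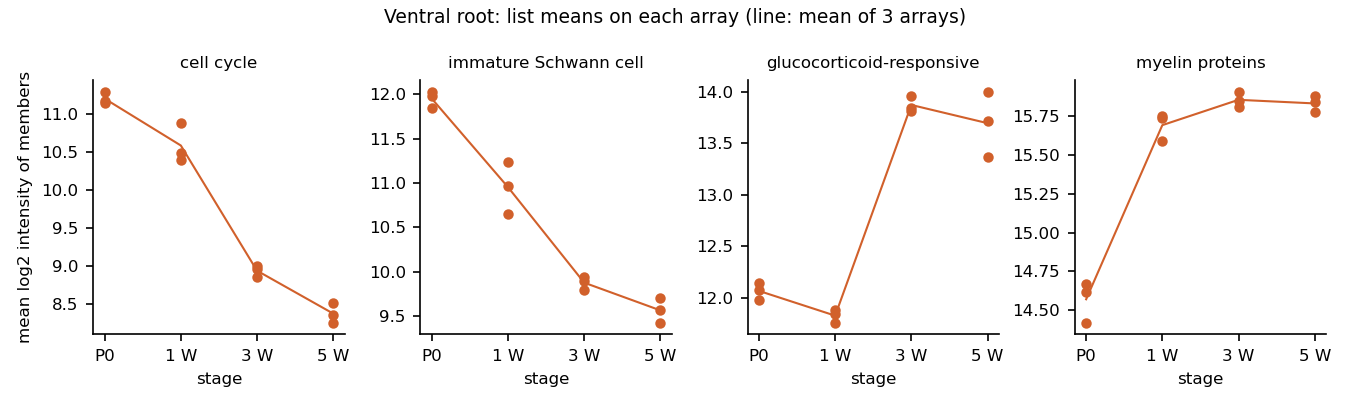
Mean log2 intensity of the kept members of 4 gene lists (y axis, a separate range in each panel) on each EN array at the 4 ages from P0 to 5 W (x axis, spaced evenly), with lines through the means of 3 arrays. The cell cycle and immature Schwann cell means decline at every step, the glucocorticoid-responsive mean steps up between 1 W and 3 W, and the myelin protein mean rises before 1 W.

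The same interval in the dorsal root was compared by the contrast of the 2 changes, over the 12 arrays of both roots at 1 W and 3 W. Of 35527 probes, 5 were called (0.0141%). Eva1a, a regulator of autophagy, was at 8.24, 8.08 and 8.17 at 1 W and 6.66, 6.55 and 6.41 at 3 W in EN and at 7.56, 7.81 and 7.68 at 1 W and 7.67, 7.91 and 7.79 at 3 W in AN (contrast -1.73, adjusted p = 0.0113). It fell in the ventral root (log2 fold change -1.63, SE 0.10, adjusted p = 0.000442) and its values overlapped between the ages in the dorsal root. Dab1 was lower at 3 W in both roots and by more in EN, where it passed below background, with AN at 9.18, 9.07 and 9.37 at 1 W and 6.99, 6.95 and 6.92 at 3 W (contrast -1.57, adjusted p = 0.029). Slc26a7, an anion exchanger, was not above background on any of the 6 EN arrays and was at 4.08, 4.07 and 4.09 at 1 W and 5.52, 5.47 and 6.48 at 3 W in AN (contrast -3.37, adjusted p = 0.0113). Only 1 of the 3 AN arrays at 1 W was above background. The EN part of this contrast and most of the AN part at 1 W therefore rest on values below detection. With normexp the contrast was -1.18, adjusted p = 0.0142 for Eva1a, -0.26, adjusted p = 0.979 for Dab1 and -0.85, adjusted p = 0.163 for Slc26a7. Arrays of both roots with the same age and number deviated together, and with age and number as a block 3 probes were called, none of them for these genes, whose adjusted p were then 0.0886, 0.117 and 0.0587. The 3 probes lie in Crh (contrast -2.58, adjusted p = 0.0259, and 0.0602 without the block), Prss56 (contrast 2.95, adjusted p = 0.0293, and 0.1 without the block) and Gadl1 (contrast 1.66, adjusted p = 0.0494, and 0.0937 without the block), none of which was well above background in more than 1 of the 4 groups.

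The count of this contrast depended on single arrays. AN replicate 3 at 3 W stood apart from its group, for example for Sybu with 8.68, 8.83 and 10.49, and without it 682 probes were called. Its neuronal markers were higher than on the other 2 AN arrays at 3 W, with mean levels of 11.38, 11.05 and 14.44 for pan-neuronal markers, 9.25, 9.03 and 12.41 for sensory neuron markers and 7.28, 7.33 and 9.63 for motor neuron markers. What this array holds was not tested. No probe was called without AN 1W replicate 1, EN 1W replicate 1 or EN 3W replicate 1 or 3, where all 12 arrays gave 5. At the unadjusted p and a fold change above 2, all 12 arrays gave 536. With all 12 arrays the contrast was 4.04, adjusted p = 0.11 for Sybu and 3.40, adjusted p = 0.212 for Zdhhc2. Without AN 3W replicate 3 it was 4.62, adjusted p = 0.00151 and 4.07, adjusted p = 0.00151.

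**Figure D5:**
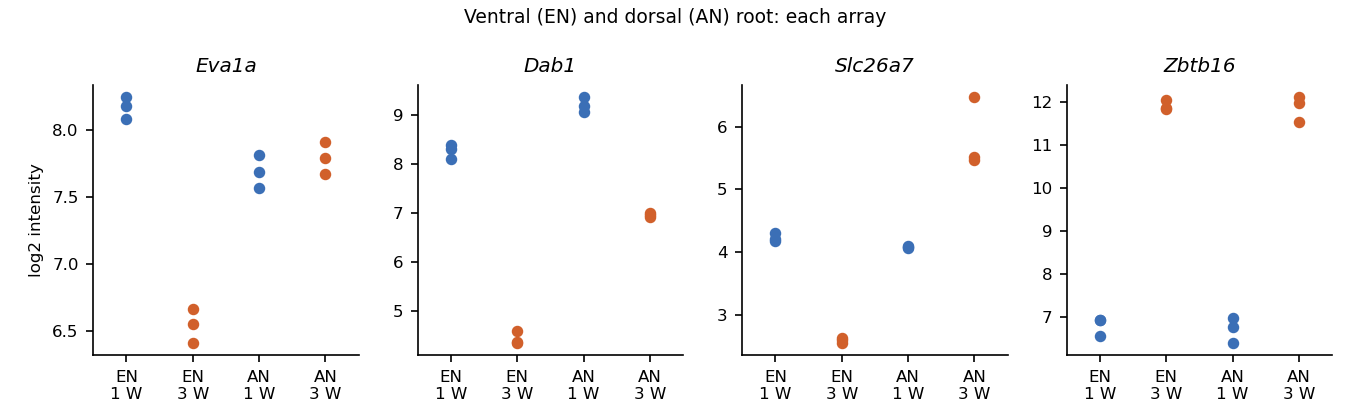
Log2 intensity (y axis, a separate range in each panel) of 4 genes on each array of EN and AN at 1 W (blue) and 3 W (orange). Eva1a is lower at 3 W in EN and overlaps in AN, Dab1 is lower at 3 W in both, Slc26a7 is below background in EN, and Zbtb16 is higher at 3 W in both roots, by 5.09 and 5.14.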

How the data were processed

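Per the labels, 24 single-colour Agilent arrays were measured, 3 for each of 8 groups, and 6 EN arrays (1 W and 3 W) were compared here. Feature Extraction 10.7.1.1 is named in the submitters' processing notes. The authors deposited the scanner intensity of every spot and 1 table of log2 values, quantile normalized by the authors, which was used. Its columns had the same quartiles, and each matched its own array's scanner values best (r of 0.9994 to 0.9999 for the 6 arrays). Its probes were named by the scanner files' gene names. Probe positions are those of the files, on mm9. Median signals of the 6 arrays lay between 51.4 and 113, with local backgrounds between 23 and 39, no spot was saturated, and the number of arrays limits precision.

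Age effects were tested with limma 3.58.1 (lmFit, eBayes) in R 4.3.3, with 4 residual degrees of freedom (6.18 after moderation), and the EN-AN contrast on 12 arrays. Both roots of an age came from the same animals per the study's methods, and deviations of EN and AN arrays of the same number from the group means correlated at 0.392, 0.512 and 0.657 at 1 W, where the number also marks the slide, and at 0.184, 0.129 and 0.228 at 3 W, so a fit with age and number as a block was added after seeing the data. The code was tested on simulated data. Named genes were the 12 largest rises and falls, the 6 largest bounds each way, up to 5 called members per list with defining members, the genes the study names, and the called contrasts. Where no array of a group was above background, the bound took the higher of the array's lowest detected value and the probe's own. Members and lists were chosen with earlier results of these data known. Some list members are not reported here by name. Some listed names were absent from the arrays (Nab1, Acat2, Cox5b, Ighm and Crabp2). Alternatives covered the values used, the filter, the arrays fitted, the block, weights, the call rule and each array left out. Promoters and older names came from RefSeq (GRCm38.p6).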

Additional observations from a re-analysis of the deposited data

Results flagged for a closer look

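For 3 genes the change from 1 W to 3 W differed between the ventral and the dorsal root by the test of the difference itself (limma, 12 arrays, adjusted over 35527 probes). The contrast was -3.37 for Slc26a7, whose ventral root values were all below background, -1.73 for Eva1a and -1.57 for Dab1, so that the change in the ventral root was the lower one in each. None of these calls held in the paired fit, with age and replicate number as a block (adjusted p of 0.0587, 0.0886 and 0.117), nor with the replicate number alone as a block (0.0579, 0.0579 and 0.0624), and with slide as a term the adjusted p were 0.0145, 0.0367 and 0.0154. With normexp they were 0.163, 0.0142 and 0.979, and with 1 array left out they ran from 1.34e-05 to 0.0737 for Slc26a7, 0.00128 to 0.0722 for Eva1a and 0.00228 to 0.175 for Dab1.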

How the results depend on the processing

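The count of 4466 probes in the ventral root stayed within 1.5 times under the other values, filters, sets of arrays, weights and the unadjusted p, and ran from 3896 to 4907 with 1 array left out, but was 2216 with normexp and 14189 at the adjusted p alone. The contrast between roots (5 probes) depended on nearly every choice: 3 with the 75th percentile scaling, 9 with normexp, 1 with probes above background on all arrays, 12 with 24 arrays, 22 with slide as a term, 316 with array weights, 536 at the unadjusted p, 3 with 1 probe per gene, and 0 to 682 with 1 array left out, the 682 without AN 3W replicate 3, 1 without AN 3W replicate 2, 2 without AN 3W replicate 1 and 3 without AN 1W replicate 2. The cause was not tested. With the replicate number as a block the counts were 4385 and 0, and with age and number as a block, a paired fit of both roots chosen after seeing the data, the contrast had 3. The numbers did not pair the EN arrays of the 2 ages, since deviations from the age means correlated at 0.061, -0.022 and 0.017 between arrays of the same number. Under the block 3 of 145 called genes lost their call (Notch1, Pi16 and Mylpf).

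With slide as a term, signs turned for Teddm2 (1.27), Tmem72 (0.58), Igf2bp2 (0.22), Col15a1 (-0.0832), Pi16 (-0.16), Dct (2.30), Nrg1 (0.34) and Erbb4 (0.38), and for the uncalled Nrxn3 (0.39) and Gabra4 (0.55). Without slide in the fit, Nrxn3 ran from -0.51 to 0.19 with 1 array left out, and turned without EN 1W replicate 3 (0.19) or EN 3W replicate 2 (0.0378). With slide as a term 38 further called genes lost their call, against 21 with normexp, 9 with no filter, 12 with 24 arrays and 6 to 12 with 1 array left out. The calls lost with normexp included those of Nlgn1, L1cam, Sfrp2, Hapln2 and Csmd1.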
